A study of Mus musculus with 2 samples.

Results

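The adrenergic receptors of the mouse adrenal gland were described from total RNA sequencing of 2 libraries. The set holds 8 genes, of 55536 annotated genes in the tables, chosen by gene symbol: the alpha1 receptors Adra1a, Adra1b and Adra1d, the alpha2 receptors Adra2a, Adra2b and Adra2c, and the beta receptors Adrb1 and Adrb3. It does not hold every gene of the family, so shares are of these 8 genes. All 8 were found in both libraries, with 23 annotated transcripts between them. The tissue came from male B6CASTF1/J mice, hybrid offspring of C57BL/6J and CAST/EiJ parents, at an age of 14 days. Both libraries belong to a single group, for which the labels name no treatment or transgene, as biological replicates 1 and 2, each started from 300 ng of RNA. The labels place both under 1 donor record and give them the same pool number of males in 1 place and different numbers elsewhere, so whether the spread between the libraries covers different animals is not known. A single group allows no comparison of conditions, so levels and their spread are described without p-values.

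Adrenergic receptors are G protein-coupled receptors of the cell surface that bind adrenaline and noradrenaline, the hormones that the adrenal medulla itself makes. Alpha1 receptors act through Gq and phospholipase C, which raise intracellular calcium. Alpha2 receptors act through Gi, which lowers cyclic AMP, and on chromaffin cells and sympathetic nerve endings they are known to restrain catecholamine release. Beta receptors act through Gs, which raises cyclic AMP, and the beta3 receptor is best known for driving fat breakdown and heat production in adipose tissue.

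The receptors are separate genes with related coding sequences, and their RNA could be told apart. Over the 7 pairs within a class, identical bases in a global alignment made up 64.2 to 69.9% of the shorter coding sequence. Over the 21 pairs between classes they made up 52.5 to 62.2%. The longest exact run shared by any pair was 30 bases, between Adrb1 and Adrb3. The window below shows the stretch of 90 coding bases around the longest run common to all 3 alpha2 genes, and it is printed because Adra2a and Adra2c, at 69.9%, were the most alike of all pairs. It spans coding bases 205 to 294 of Adra2a, 112 to 201 of Adra2b and 214 to 303 of Adra2c in the GENCODE M21 transcripts (mm10). Capitals mark the 66 bases that were identical in all 3, and the run without a break is 17 bases long.
Adra2a: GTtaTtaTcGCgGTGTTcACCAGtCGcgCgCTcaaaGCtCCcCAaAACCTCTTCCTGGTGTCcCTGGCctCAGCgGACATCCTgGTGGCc
Adra2b: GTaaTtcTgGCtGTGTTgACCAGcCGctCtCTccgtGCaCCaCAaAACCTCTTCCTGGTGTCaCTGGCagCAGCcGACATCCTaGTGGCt
Adra2c: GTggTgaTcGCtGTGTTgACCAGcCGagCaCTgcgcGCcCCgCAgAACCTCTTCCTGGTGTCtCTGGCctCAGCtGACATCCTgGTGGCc
The deposited posterior SD of the expected count was 0 for each of the 8 genes in both libraries, the value given where no reads are divided among genes.

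Adra1a and Adrb3 have annotated transcripts that end their coding sequence differently, and these ends are printed because the transcript results turn on them. Each pair starts with the last 30 shared coding bases in lower case, and capitals mark the bases that differ in reading onward, up to and including the stop codon. Adrb3, known in the mouse to be spliced into forms with different carboxyl ends, lies on chromosome 8.
Adrb3-201: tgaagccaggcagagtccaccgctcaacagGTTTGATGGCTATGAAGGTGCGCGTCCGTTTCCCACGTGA
Adrb3-202: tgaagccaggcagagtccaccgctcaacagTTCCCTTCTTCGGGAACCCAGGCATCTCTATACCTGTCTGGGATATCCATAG
Adrb3-203 has the same coding end as Adrb3-201. The Adra1a pair lies on chromosome 14, and splicing into forms with different carboxyl ends is known of this gene in human.
Adra1a-201: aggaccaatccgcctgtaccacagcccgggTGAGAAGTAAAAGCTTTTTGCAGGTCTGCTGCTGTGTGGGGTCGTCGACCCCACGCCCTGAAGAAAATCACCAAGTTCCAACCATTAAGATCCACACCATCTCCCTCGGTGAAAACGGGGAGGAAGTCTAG
Adra1a-203: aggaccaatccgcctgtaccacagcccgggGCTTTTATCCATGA
Adra1a-202 and Adra1a-205 have the same coding end as Adra1a-201. The coding sequence is 1401 bases long in Adra1a-201 and 1284 in Adra1a-203, and it is 1203 bases long in Adrb3-201 and 1215 in Adrb3-202.

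The libraries held 32963248 expected counts in replicate 1 and 36260745 in replicate 2, of which the 8 receptors took 2173 and 2523. Levels are TPM (transcript abundance per gene length and library total, from RSEM), so levels of different genes can be set side by side. The cortex and chromaffin markers that define the tissue were all detected: the 5 cortex markers summed to 4239 TPM in replicate 1 and 4693 in replicate 2, and the 5 sympathetic and chromaffin markers to 886.3 and 950.3 TPM. Apart from those of kidney, markers of other tissues were present, and the hepatocyte and lymphocyte markers differed between the libraries. The 7 hepatocyte markers found in the annotation summed to 302.3 TPM in replicate 1 and 5256 in replicate 2, and the 8 lymphocyte markers to 76.1 and 11.1 TPM. The 8 adipocyte markers summed to 2943 TPM in replicate 1 and 3000 in replicate 2, and 0 of 5 kidney markers were detected, with a sum of 0.480 and 0.470 TPM. Aqp2 led these at 0.440 TPM in replicate 1 and 0.380 in replicate 2, and Umod and Slc12a1 were at 0 counts in both libraries. All 7 hepatocyte markers, all 8 adipocyte markers and 5 of the 8 lymphocyte markers were detected. In such bulk tissue fewer cells of a type and less RNA per cell cannot be told apart.

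**Figure D1:**
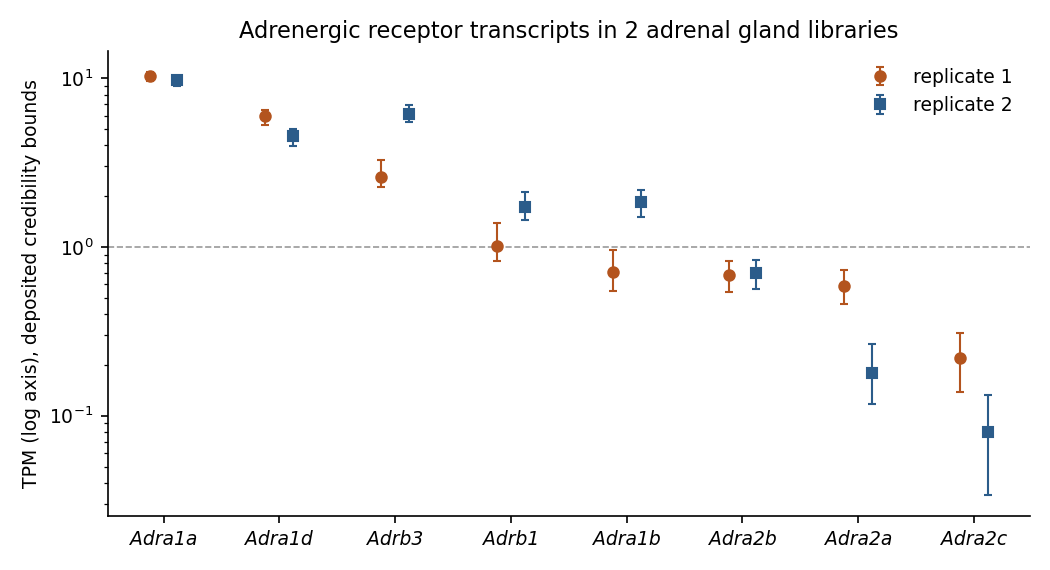
Level of each of the 8 receptor genes in TPM on a log axis, replicate 1 (circles) left of replicate 2 (squares), with the deposited credibility bounds as bars and a dashed line at 1 TPM. Adra1a was highest in both libraries, at 10.4 and 9.76 TPM, and Adra2c lowest, at 0.220 and 0.0800 TPM.

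Alpha1 receptors made up most of the measured receptor RNA, beta receptors followed, and the alpha2 receptors were lowest. Their shares of the summed TPM of the 8 genes were 76.9% in replicate 1 and 64.8% in replicate 2 for alpha1, 16.4% and 31.4% for beta, and 6.72% and 3.84% for alpha2. The order of the 3 classes was the same in both libraries. As means these are 70.8% ± 8.58, 23.9% ± 10.6 and 5.28% ± 2.04 (SD, n = 2). The 8 genes summed to 22.2 TPM in replicate 1 and 25.0 in replicate 2. In TPM the alpha1 sum differed little between the libraries, at 17.0 in replicate 1 and 16.2 in replicate 2, and the beta sum was 3.63 and 7.84, so the lower alpha1 share in replicate 2 stood beside a higher beta level there. At least 1 TPM in both libraries, the rule for a detected gene, was reached by 4 of the 8 receptors, Adra1a, Adra1d, Adrb3 and Adrb1. Adrb1 passed narrowly, at 1.02 TPM in replicate 1. Of this, 0.94 TPM lay on the coding transcript Adrb1-201 and 0.08 TPM, from 1 count, on the non-coding Adrb1-202. By kallisto Adrb1-201 alone was at 1.37 TPM there. The same rule was met by 54.2% of the 22015 nuclear protein-coding genes, so the receptors were detected about as often as genes at large.

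Adra1a was the most abundant of the set. This alpha1 receptor, on chromosome 14 from 66635251 to 66771168 in mm10, is known to contract smooth muscle and to signal in liver and heart. It stood at 10.4 TPM in replicate 1 (1310 counts) and 9.76 TPM in replicate 2 (1328 counts), a mean of 10.1 ± 0.424 (SD, n = 2). The credibility bounds, 9.67 to 10.9 TPM in replicate 1 and 9.02 to 10.3 TPM in replicate 2, overlapped. Of the nuclear protein-coding genes 24.7% had a higher mean. Its level lay above that of every other receptor of the set in both libraries.

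Adra1d, on chromosome 2 from 131545850 to 131562283, is the alpha1 receptor known for tone of large arteries. It had 5.97 TPM in replicate 1 (353 counts) and 4.55 TPM in replicate 2 (292 counts). The bounds, 5.27 to 6.48 TPM and 3.98 to 5.01 TPM, did not overlap, and the ratio of counts per library total, replicate 1 over replicate 2, was 1.33 with a 95% exact interval of 1.14 to 1.56. These intervals cover counting error only. Adra1d stood below Adra1a by a log2 ratio of -0.95 ± 0.216 (SD, n = 2), and was the lower of the pair in both libraries. The antisense gene Gm14285, which overlaps Adra1d on the other strand, was at 0.320 TPM in replicate 1 and 0.10 in replicate 2, and the library kit is directional per the labels.

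Adra1b, on chromosome 11 from 43774606 to 43901210, is the main alpha1 receptor of rat liver. It stood at 0.710 TPM in replicate 1 (64 counts) and 1.86 TPM in replicate 2 (138 counts), 2.62-fold higher in replicate 2, and the bounds of the libraries did not overlap. In counts per library total the difference was 1.96-fold, with a 95% exact interval of 1.45 to 2.68. By kallisto, a second deposited quantification, it was 1.95-fold. The TPM ratio was the larger because the effective length that RSEM gave the gene was 2739 bases in replicate 1 and 2084 bases in replicate 2, which follows from the transcripts it assigned. Hepatocyte markers were 17.4-fold higher in replicate 2 as a sum, with 7 of 7 higher there, and their part in the level of Adra1b was not tested. Adra1b stood below Adra1a by a log2 ratio of -3.13 ± 1.04 (SD, n = 2), from -3.87 in replicate 1 and -2.39 in replicate 2.

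The beta receptors were led by Adrb3, whose levels in the libraries lay 2.34-fold apart. Adrb3, on chromosome 8 from 27225776 to 27250616, stood at 2.61 TPM in replicate 1 (176 counts) and 6.11 TPM in replicate 2 (473 counts). It was higher in replicate 2, by that factor in TPM, 2.44-fold in counts per library total (95% exact interval 2.05 to 2.92) and 2.68-fold by kallisto. The bounds, 2.27 to 3.30 TPM in replicate 1 and 5.51 to 6.93 TPM in replicate 2, lay apart. The summed adipocyte markers, most of which is Fabp4, Ucp1 and Cidea, were 1.02-fold higher in replicate 2, and Ucp1, the uncoupling protein of brown fat, stood at 723.6 TPM in replicate 1 and 861.0 in replicate 2. Of the 8 adipocyte markers 1 was over 2-fold higher in replicate 2, the hormone Lep, at 1.58 TPM in replicate 1 and 4.59 in replicate 2. The hepatocyte markers were 17.4-fold higher in replicate 2 as a sum, and the part of either list in the level of Adrb3 was not tested. The antisense gene Gm45470, over Adrb3 on the other strand, was at 0.280 TPM in replicate 1 and 0.390 in replicate 2.

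Adrb1, on chromosome 19 from 56722199 to 56733113, is the beta receptor that speeds the heart. It stood at 1.02 TPM in replicate 1 (89 counts) and 1.73 TPM in replicate 2 (163 counts), and the bounds, 0.821 to 1.38 TPM and 1.45 to 2.12 TPM, did not overlap. The counts per library total were 1.66-fold higher in replicate 2 (95% exact interval 1.28 to 2.18), and by kallisto the TPM were 1.19-fold higher there. Adrb3 exceeded Adrb1 in both libraries, by a log2 ratio of 1.36 in replicate 1 and 1.82 in replicate 2, a mean of 1.59 ± 0.329 (SD, n = 2) or 3.01-fold.

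The alpha2 receptors were each under 1 TPM in both libraries. Adra2b, on chromosome 2 from 127363208 to 127367221, is an alpha2 receptor of vascular smooth muscle and had the closest values of the set, 0.680 TPM in replicate 1 (87 counts) and 0.700 TPM in replicate 2 (97 counts). Its 95% exact interval for the ratio of counts, replicate 1 over replicate 2, ran from 0.730 to 1.33. Adra2a, on chromosome 19 from 54044151 to 54048982, is a presynaptic receptor that restrains noradrenaline release. It stood at 0.590 TPM in replicate 1 (70 counts) and 0.180 TPM in replicate 2 (23 counts). Counts per library total were 3.35-fold higher in replicate 1 (95% exact interval 2.06 to 5.62), and the bounds lay apart.

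Adra2c, on chromosome 5 from 35278319 to 35281763, is known as the main alpha2 receptor of mouse chromaffin cells. It was the lowest of the set, at 0.220 TPM in replicate 1 (24 counts) and 0.0800 TPM in replicate 2 (9 counts). The ratio of counts, replicate 1 over replicate 2, was 2.93, and with so few counts its 95% exact interval ran from 1.32 to 7.17. Adra2a exceeded Adra2c by a log2 ratio of 1.30 ± 0.179 (SD, n = 2), and Adra2b exceeded it by 2.38 ± 1.06, from 1.63 in replicate 1 and 3.13 in replicate 2. Beside the higher Adra2a and Adra2c levels in replicate 1, all 8 lymphocyte markers and all 5 smooth muscle markers were higher there, with sums 6.83-fold and 1.91-fold those of replicate 2. Their part in these differences was not tested. The chromaffin markers moved little, with a summed TPM in replicate 1 of 0.933 times that of replicate 2.

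**Figure D2:**
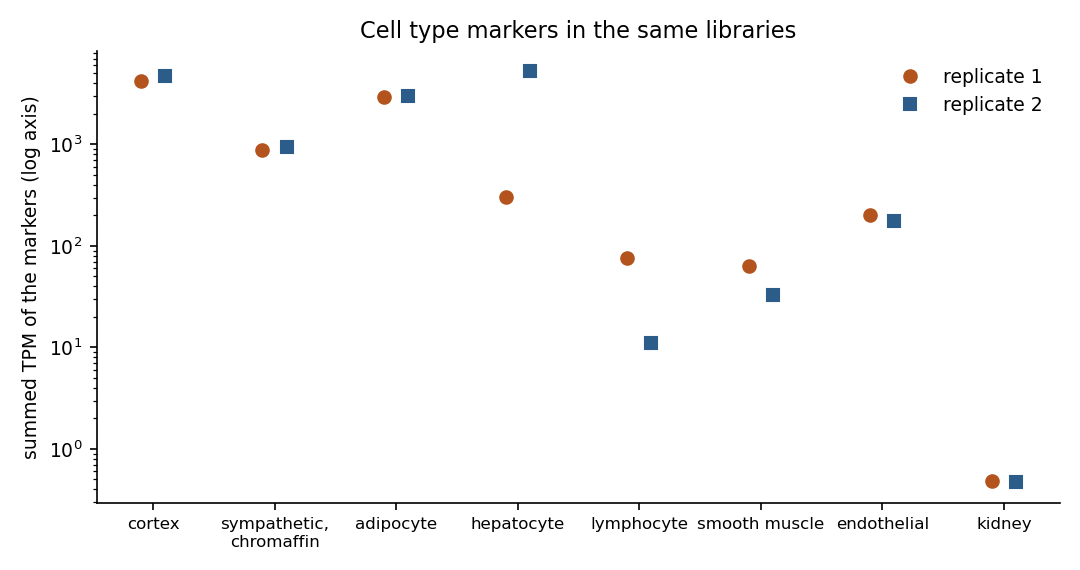
Summed TPM of the marker lists on a log axis, replicate 1 (circles) left of replicate 2 (squares). Hepatocyte markers were at 302.3 and 5256 TPM and lymphocyte markers at 76.1 and 11.1 TPM, while the adipocyte sums were 2943 and 3000 TPM.

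In the order of mean level, 4 of the 7 neighbouring pairs did not overlap between the libraries: Adra1a above Adra1d, Adrb3 above Adrb1, Adra1b above Adra2b, and Adra2b above Adra2a. The gap was narrow for Adra1b and Adra2b, whose nearest values were 0.710 and 0.700 TPM. Adra1d and Adrb3 changed places between the libraries, as did Adrb1 and Adra1b, so neither pair has a fixed order. Adra2a lay above Adra2c within each library, but the ranges of the pair overlapped. From Adra1a to Adra2c the means spanned 67.1-fold.

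Most of the receptors are genes of low level, where differences over 2-fold between the libraries are more common. Adrb3 is not among these: its mean of 4.36 TPM lay above the median of nuclear protein-coding genes, 2.045 TPM, and such differences were uncommon near its level. Of the 5 receptors that averaged 1 TPM or more, 0 were over 2-fold higher in replicate 1 and 2 were over 2-fold higher in replicate 2, Adra1b and Adrb3. Among the 12535 nuclear protein-coding genes that did so, 2.52% were over 2-fold higher in replicate 1 and 3.37% in replicate 2. With averages of 0.1 TPM or more, which takes in all 8 receptors, 2 were over 2-fold higher in replicate 1, Adra2a and Adra2c, and 2 in replicate 2. The shares of protein-coding genes were then 5.85% and 5.06%. These shares rise as the level falls. Among genes within 1.5-fold of the mean of Adra2c 42.9% differed over 2-fold in either direction, near Adra2a 31.5%, near Adra1b 17.5%, near Adrb3 6.62% and near Adra1a 2.55%. The median log2 ratio of the nuclear protein-coding genes, replicate 1 over replicate 2, was 0.066, and with scaling to the ERCC spike-ins, RNAs of known amount added to each library, it was 0.14.

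**Figure D3:**
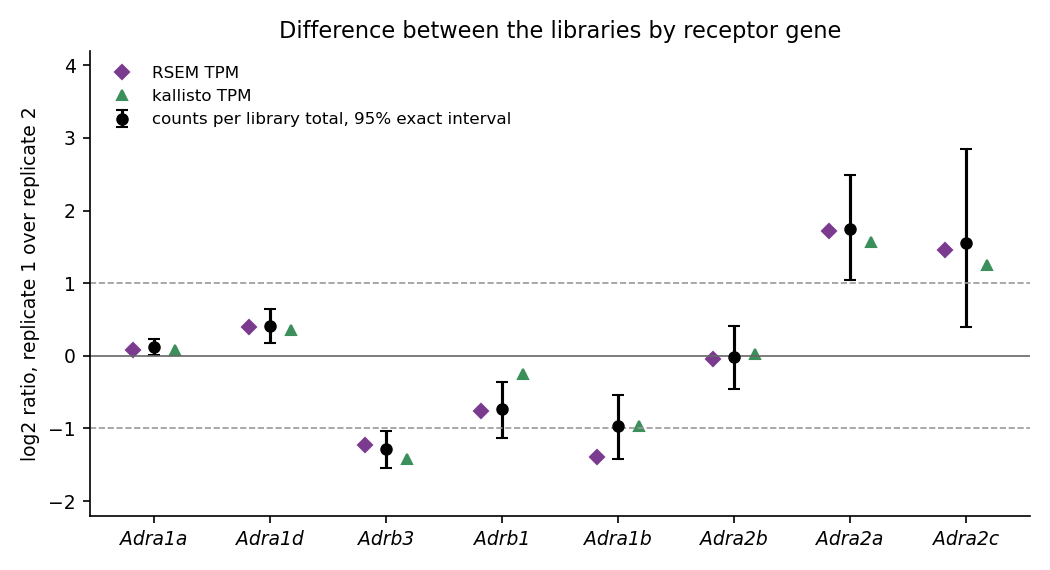
Log2 ratio of replicate 1 over replicate 2 for each receptor, from RSEM TPM (diamonds), counts per library total with 95% exact intervals (circles) and kallisto TPM (triangles), with dashed lines at 2-fold. Adrb3 lay below and Adra2a above 2-fold by all 3 measures, and of these measures Adra1b crossed the line only in RSEM TPM.

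Transcript estimates gave Adra1a a mixture of coding ends that was alike in both libraries and by both quantifications. The Adra1a-203 end printed above took 40.1% of the gene's TPM in replicate 1 and 44.0% in replicate 2, a mean of 42.0% ± 2.76 (SD, n = 2), and by kallisto 42.5% and 46.6%. The longer end of Adra1a-201, Adra1a-202 and Adra1a-205 took 47.8% and 45.7%, and by kallisto 44.1% and 43.1%. The remainder lay on the retained-intron transcript Adra1a-204, at 9.46% in replicate 1 and 8.50% in replicate 2, and on Adra1a-206, whose coding sequence of 888 bases is the shortest, at 2.70% and 1.84%. The split among the transcripts that share the longer end was less certain: by RSEM Adra1a-205 held 7.82% of the gene's TPM in replicate 1 and 11.4% in replicate 2, and by kallisto 12.7% and 23.1%.

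Adrb3 was mostly of a single coding end. Adrb3-201 and Adrb3-203, which share it, together took 93.5% of the gene's TPM in replicate 1 and 91.8% in replicate 2, and by kallisto 94.8% and 87.4%. The Adrb3-202 end was at 0 counts in replicate 1 and 11.6 expected counts in replicate 2 by RSEM, or 4.26% of the TPM in replicate 2, and by kallisto it took 5.19% in replicate 1 and 10.1% in replicate 2. The credibility bounds of Adrb3-202 reached up to 0.448 TPM in replicate 1 and 0.879 in replicate 2. The 2.34-fold higher level of Adrb3 in replicate 2 was carried by the Adrb3-201 end, which stood at 2.43 TPM in replicate 1 and 5.61 in replicate 2.

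**Figure D4:**
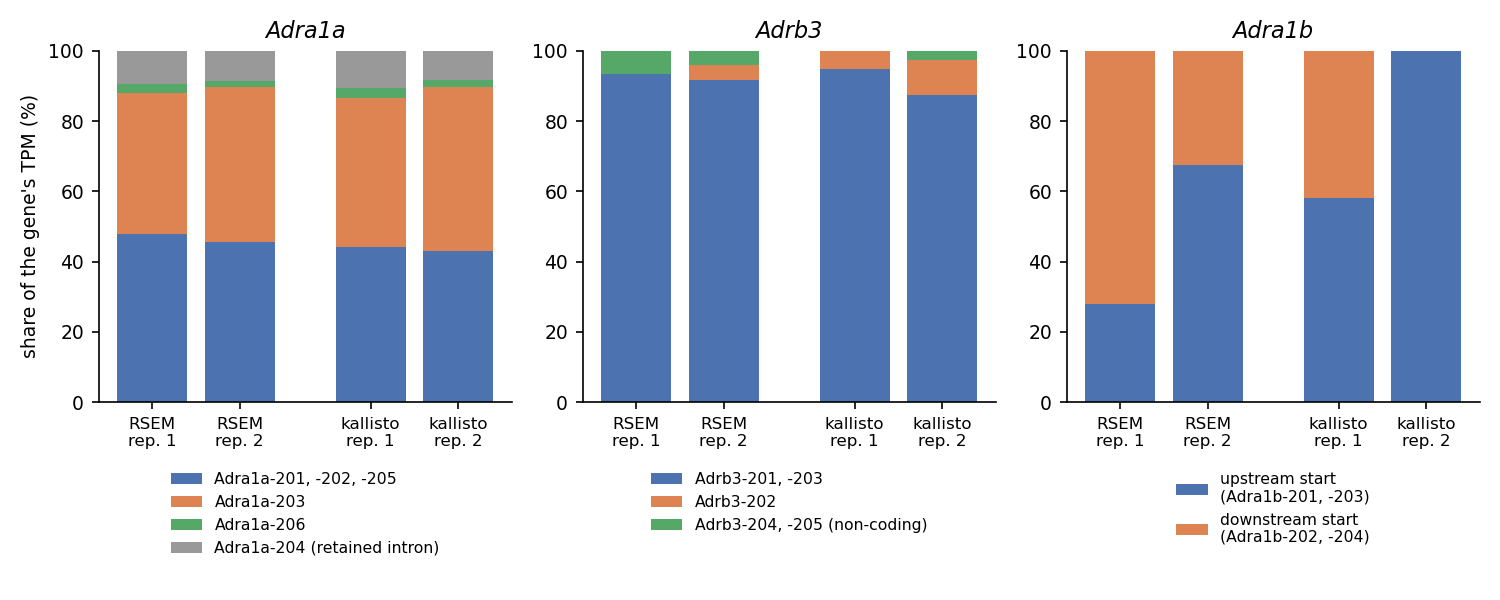
Share of the TPM of Adra1a, Adrb3 and Adra1b on groups of transcripts, as stacked bars for RSEM and kallisto with replicate 1 left of replicate 2. The Adra1a-203 end took 40.1 to 46.6% in all 4 bars, whereas the upstream start of Adra1b ran from 27.8 to 100%.

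Adra1b has 2 annotated starts, and how its RNA was divided between them was not settled by these libraries. Adra1b-201 and Adra1b-203 begin at the upstream start and Adra1b-202 and Adra1b-204 at the downstream start. The last pair have identical sequences in the annotation, although only Adra1b-204 is given a coding sequence, so their equal counts are an even split. RSEM put 27.8% of the TPM on the upstream start in replicate 1 and 67.6% in replicate 2, and kallisto 58.1% and 100%. The estimates rest on few counts, 14.5 in replicate 1 and 74.3 in replicate 2 for the upstream start by RSEM. The 250 bases before the RefSeq start nearest to each are printed (GRCm38.p6, minus strand, 5′ to 3′), with capitals marking CpG dinucleotides.
Adra1b upstream, chr11:43901238-43901487: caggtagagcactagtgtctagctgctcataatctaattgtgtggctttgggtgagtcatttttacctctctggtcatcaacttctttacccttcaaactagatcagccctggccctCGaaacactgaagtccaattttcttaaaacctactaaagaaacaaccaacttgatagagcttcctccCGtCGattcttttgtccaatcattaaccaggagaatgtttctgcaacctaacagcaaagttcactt
Adra1b downstream, chr11:43836490-43836739: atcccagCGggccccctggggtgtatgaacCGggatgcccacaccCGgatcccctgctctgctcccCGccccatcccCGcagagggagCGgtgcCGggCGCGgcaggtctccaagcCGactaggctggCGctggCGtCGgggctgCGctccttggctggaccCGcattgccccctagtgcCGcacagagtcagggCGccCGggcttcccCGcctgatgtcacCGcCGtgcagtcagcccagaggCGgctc
The upstream window was 41.6% G and C with 3 CpG, and the downstream window 72.8% with 22 CpG. Over 32851 RefSeq promoter windows of this length the medians were 52.4% and 6. RefSeq windows were at hand for 5 of the 8 receptors. Those of Adrb1, Adra2a and Adra2b were also rich in CpG, at 24, 22 and 23, and that of Adra2c held 6.

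Of the other receptors, Adra1d and Adra2c each have 1 annotated transcript, of 2 exons and 1 exon. The transcripts of Adra2b have a coding length of 1362 bases in Adra2b-201 and 1347 in Adra2b-202, and the split between them was not settled. Both are of 1 exon with the same end, so the 3936 bases of Adra2b-201 lie within the 4014 of Adra2b-202. Adra2b-201 took 0% of the gene's TPM in replicate 1 and 34.3% in replicate 2, and by kallisto 0% and 55.8%. Its credibility bounds overlapped, reaching from near 0 up to 0.381 TPM in replicate 1 and 0.595 in replicate 2. Adra2a-202, with a spliced leader and the same coding sequence of 1398 bases as the unspliced Adra2a-201, took 91.5% of the gene's TPM in replicate 1 and 100% in replicate 2, and by kallisto 89.9% and 90.6%. Adrb1-201, the coding transcript, took 92.2% of the gene's TPM in replicate 1 and 91.9% in replicate 2. By kallisto it took 67.7% and 88.9%, the rest being on the non-coding Adrb1-202, with 3.05 estimated counts in replicate 1 and 1.39 in replicate 2. Because Adrb1-202 is 494 bases long, these few counts weigh heavily in TPM.

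Genes that make, pass on and end the adrenergic signal were placed beside the receptors. Of 55 genes in 10 such lists 45 were detected, beside 54.2% of nuclear protein-coding genes by the same rule. The lists were chosen by hand, and those with few genes say little when set against that share. All 4 genes of catecholamine synthesis were detected, with Pnmt, which makes adrenaline, at 204.8 TPM in replicate 1 and 185.4 in replicate 2, well above any receptor. Of the signalling genes, Gnas, the gene of the Gs subunit of most tissues, stood at 1419 TPM in replicate 1 and 1340 in replicate 2. These are totals over all transcripts of the gene, which were not separated. Gnai2, a Gi subunit that alpha2 receptors use, was at 75.6 and 67.2 TPM, and Gna11, a Gq subunit that alpha1 receptors use, at 17.9 and 17.5 TPM. The members detected were 1 of 2 among Gs subunits (Gnal was at 0.380 TPM in replicate 1 and 0.300 in replicate 2), 3 of 4 among Gq subunits, 4 of 5 among Gi and Go subunits, 3 of 4 phospholipase C beta genes, 6 of 9 adenylyl cyclases and 6 of 6 protein kinase A subunits. Adcy6, a cyclase that Gi inhibits, led the cyclases at 22.9 TPM in replicate 1 and 19.9 in replicate 2.

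Of the genes that end the signal, 6 of 7 receptor kinases and arrestins and 5 of 7 RGS genes were detected. Grk2, the kinase that marks active beta receptors for arrestin, was at 19.8 TPM in replicate 1 and 12.2 in replicate 2, and Rgs2, which shortens Gq signals, at 101.5 and 126.7 TPM. Of 46 genes of these 10 lists that averaged 1 TPM or more, 3 were over 2-fold higher in replicate 1 and 0 in replicate 2, beside the 2.52% and 3.37% of nuclear protein-coding genes given above. Slc6a2, the noradrenaline transporter, was at 8.98 TPM in replicate 1 and 3.13 in replicate 2, Adcy7 at 3.40 and 1.51 TPM, and Plcb2, known from blood cells, at 2.32 and 0.290 TPM.

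Receptors for other amines were lower than the leading adrenergic receptors. Of 14 dopamine, muscarinic and histamine receptors 0 were detected, against 4 of the 8 adrenergic receptors and 54.2% of nuclear protein-coding genes. The alpha2 receptors, with 0 of 3 detected, lay within the range of the 14. The highest of the 14, the muscarinic receptor Chrm3, was at 0.610 TPM in replicate 1 and 1.05 in replicate 2. By kallisto Chrm3 was at 1.28 and 1.24 TPM and so was detected, beside 5 of the 8 adrenergic receptors. Of the receptors through which nerves drive chromaffin cells, the PACAP receptor Adcyap1r1 was at 9.84 TPM in replicate 1 and 7.96 in replicate 2 and the nicotinic subunit Chrna7 at 5.89 and 5.61 TPM, in the range of Adra1a and Adra1d. Receptors for hormones that drive the cortex were higher: Agtr1a, the angiotensin receptor, stood at 68.6 TPM in replicate 1 and 56.4 in replicate 2, and Mc2r, the ACTH receptor, at 58.7 and 55.3 TPM.

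**Figure D5:**
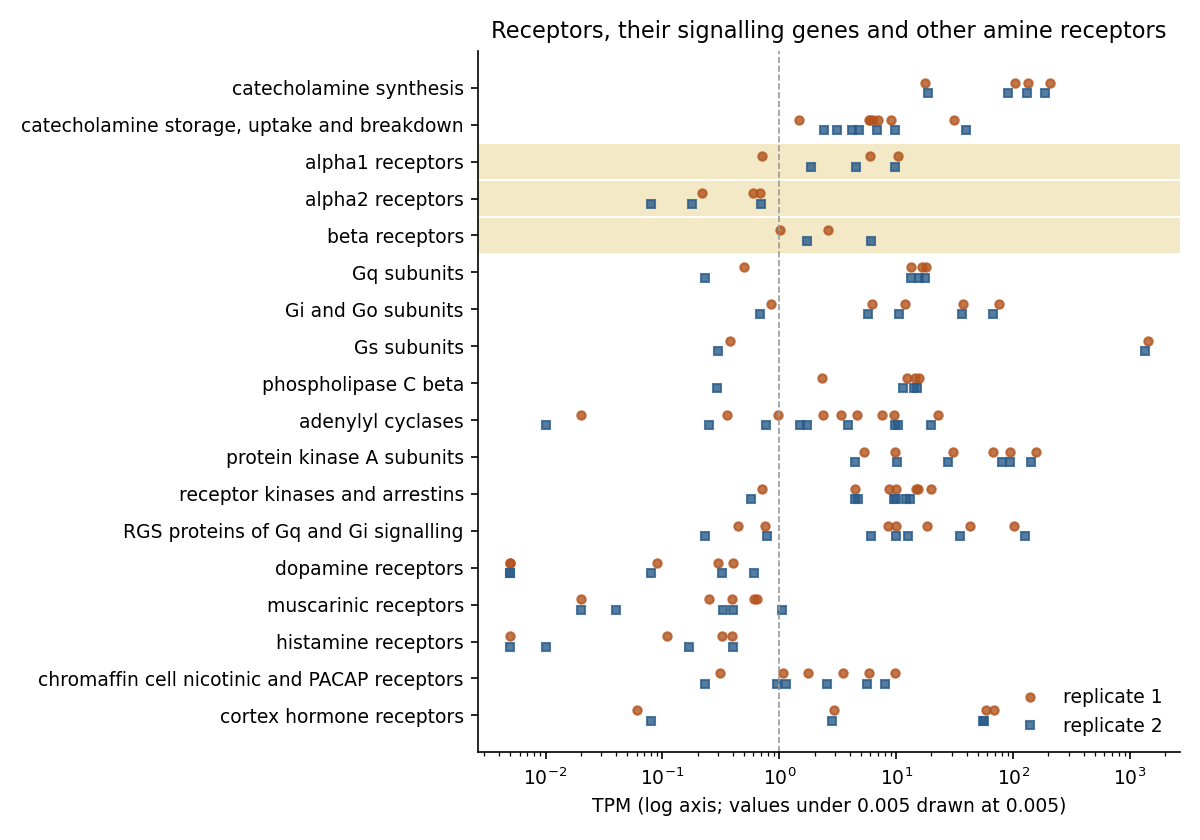
TPM of each gene of the receptor classes (shaded) and of 15 further lists on a log axis, replicate 1 (circles) above replicate 2 (squares), with a dashed line at 1 TPM. The dopamine, muscarinic and histamine receptors lay at or below 1.05 TPM in both libraries, and the alpha2 receptors at or below 0.700 TPM.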

How the data were processed

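Adrenal gland RNA of 2 libraries was analysed, replicates 1 and 2 of 1 group. The 8 genes, the lists and the thresholds were chosen with earlier results of these data known. Expected counts and TPM per gene and transcript were deposited by the authors for mm10 with GENCODE M21, per the list of files they deposited. The headers name columns as RSEM does, and the deposited TPM covers all entries together with the spike-ins, per the file headers. The deposited tables also hold credibility bounds of TPM, used here as a signal that adds up to no fixed total and whose level the headers do not state. They hold the posterior SD of the count, a score of read sharing, and each transcript's percent of its gene's TPM, recomputed here, per the file headers. A second set of deposited estimated counts and TPM has the column names of kallisto, per the file headers, and was summed to genes. The aligner and the tool versions are not named in the labels or headers.

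Genes were detected at 1 TPM in both libraries. A difference was called over 2-fold, without a test, since there was 1 group of 2 libraries. Count ratios per library total carry 95% exact intervals from the conditional binomial of rounded counts. Nuclear protein-coding genes (22015) were the background. Coding sequences came from the GENCODE M21 transcripts and promoters from RefSeq (GRCm38.p6). Coding sequences were aligned globally with Biopython 1.88, and the longest of each gene was used. Of the other lists, the genes named were among the 4 highest by mean TPM or differed over 2-fold with a mean of at least 1 TPM, apart from the kidney markers at 0 counts, named for that. One hepatocyte symbol of 8 was not found. Protein identity was not computed. Scaling alternatives used TMM factors from edgeR 4.0.16, DESeq2 1.42.0 size factors (R 4.3.3) and spike-in totals. Other steps used Python 3.11.15, matplotlib 3.10.9, scipy 1.17.1, numpy 2.4.6 and pandas 2.3.3. The fold rule was tested on simulated data that left out genes with as few counts as Adra2c, so the test does not cover that level.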

Additional observations from a re-analysis of the deposited data

How the results depend on the processing

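Class shares and the ratios between receptors kept their direction under each alternative run. By kallisto and with posterior mean TPM they moved by less than 1 SD between the libraries. Rescaling to nuclear protein-coding genes cannot change them. With 2 libraries, leaving 1 out always moves the mean by less than 1 SD, so that limit says nothing of stability there. The SD is wide: leaving out a library moved the log2 ratio of Adra2b over Adra2c from 2.38 to 1.63 or 3.13. That of Adra1b over Adra1a moved from -3.13 to -3.87 or -2.39. Of the 79 genes in the 15 further lists, which include receptors outside the adrenergic pathway, 52 were detected, with 58 at 0.5 TPM and 57 by kallisto. The count of receptors detected, 4, was 7 at a threshold of 0.1 TPM, 6 at 0.5 TPM, 3 at 2 TPM and 7 at 10 counts. It was 5 by kallisto, 4 with posterior mean TPM and 6 with TPM rescaled to nuclear protein-coding genes. Without replicate 1 it was 5 and without replicate 2 it was 4. The share of nuclear protein-coding genes is not given at these settings, so these counts do not place the receptors beside genes at large. The 2 receptors over 2-fold with a mean of at least 1 TPM became 1 by kallisto, 1 with ERCC spike-in totals and 0 with log2(TPM + 1). They became 4 with a minimum mean of 0.1 TPM, 0 of 2 with 5 TPM and 4 with no minimum above 0. Of the nuclear protein-coding genes 10.9%, 2.75% and 17.7% were then over 2-fold in either direction. Adra1b fell under 2-fold by kallisto (log2 ratio -0.96) and with spike-in totals (-0.91), and stayed over 2-fold with TMM factors (-1.08) and DESeq2 size factors (-1.10). Its upstream share of TPM was 47.7% by RSEM and 79.0% by kallisto, and the Adrb3-202 share 2.13% and 7.66%. The causes of these shifts were not tested. Levels by kallisto were 1.41 to 1.61 times those by RSEM. With 1 group of 2 libraries the spread of the receptors is known only roughly, and Adra2c rests on 24 and 9 counts. No paired analysis was possible because there is 1 group.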
